A study of Mus musculus with 3 samples.

Results

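The nuclear genes of the mitochondrial respiratory chain were described as 82 genes, read by 111 probes, out of 27537 gene labels on the array. A gene was a member where the array's name for a probe began with Nduf, with Sdh and a letter from a to d, with Uqcr, with Cox4 to Cox8 or with Atp5 in the scanner files of all 3 arrays. The rule reads names only. By name alone, complex I held 37 members (Nduf), complex II 4 (Sdh), complex III 7 (Uqcr), complex IV 18 (Cox) and complex V 16 (Atp5). Ndufa4 was counted in complex I for its name, whichever complex its protein joins. Of the 82, 79 were counted as structural subunits. Ndufaf1, an assembly factor of complex I, Atp5s (now Dmac2l) and Cox4nb were not, but they stay in the counts of members and of complexes. Cox4nb (now Emc8) belongs to a complex of the endoplasmic reticulum and owes its older name to its neighbour Cox4i1.

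Total RNA from 3 groups of mouse cells was labelled with Cy3 and read on 1-colour Agilent arrays, 1 array per group. The groups were p53-null embryonic fibroblasts (MEF), embryonic stem (ES) cells, and fibroblasts with p53 intact by the series design, called MEF here. By their labels all groups carry Nanog-GFP, a fluorescent reporter of a gene of pluripotent cells. How p53 was removed, the strain, the passage and the culture conditions are not given in the sources used here. The series concerns p53 in the generation of induced pluripotent stem cells, and each of p53-null MEF and ES cells was set against MEF here.

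In the inner mitochondrial membrane, complexes I to IV pass electrons from NADH and succinate over ubiquinone and cytochrome c to oxygen. Complexes I, III and IV pump protons as they do so, complex II does not, and complex V uses the proton gradient to make ATP. Most subunits are encoded in the nucleus and imported, while some catalytic ones are encoded in mitochondrial DNA. Several subunits of complex IV come in a general form and in forms of muscle, lung or testis. Pluripotent stem cells are known for active glycolysis while they keep a working chain. How far the ES cells here relied on either was not measured.

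With 1 array per group there was no replicate and no test, so every difference describes these arrays. Signals are in scanner units before scaling, and one that the scanner software did not mark as well above background is called dim. The 75th percentile of non-control spots came to 1040.0 units in p53-null MEF, 834 units in ES cells and 829 units in MEF, and log2 differences were taken after each array was divided by its own. Errors are the scanner software's error model, 10% for a bright spot, which gives 0.20 for the log2 difference of a bright gene and covers measurement error only. A gene was called higher or lower at 2-fold or more. ES cells and MEF shared a slide and scan, while p53-null MEF had a slide of its own that was scanned separately, so slide, scan and group cannot be told apart in the p53-null comparison. Trp53, the gene for p53, read 56.3 units in p53-null MEF, 4902 units in ES cells and 1304 units in MEF, which puts p53-null MEF 29.1-fold below MEF, and its other probe gave a log2 difference of -1.46. ES cell markers were well above background for 2 of 8 genes in p53-null MEF, 8 in ES cells and 4 in MEF. Fibroblast markers were so for 11 of 11, 10 and 11, with summed signals of 461641 units in p53-null MEF, 7642 units in ES cells and 491666 units in MEF, sums that rest on a few bright collagens. Per gene, 4 of the 11 were lower and 0 higher in p53-null MEF against MEF, for a median of -0.53, with Dcn at -2.53 and Lum at -2.03. All 11 were lower in ES cells, Lum as a bound. Of all gene labels, 16.6% were lower in p53-null MEF and 27.3% in ES cells.

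The forms of complex IV subunits are read by separate probes of 60 bases. The first 30 bases are shown for 3 pairs of forms whose values are set side by side further on, each general form before its tissue form, with the probe's position on build mm8 from the array's annotation.
Cox6a1 at chr5:115606716-115606775: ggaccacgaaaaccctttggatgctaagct
Cox6a2 at chr7:127996794-127996853: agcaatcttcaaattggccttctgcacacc
Cox6b1 at chr7:30333316-30334812: aggagtcaggatggctgaagacatcaagac
Cox6b2 at chr7:4354973-4355032: ggaactttcccgggcaaaatatgaccttgc
Cox7a2 at chr9:79541104-79541163: aactgagctcttctttggggatcaatattt
Cox7a1 at chr7:29894078-29894689: acaacgtcctgtacagactgaccatgacgc
No capitals are used, since no stretch was singled out. Over their 60 bases, the probes of a pair shared no run longer than 6 bases. Probes were not set against the partner's transcript, so whether a probe also binds the partner form was not tested.

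Most chain genes lay within 2-fold in both comparisons. In p53-null MEF against MEF, 3 members were higher and 5 lower among 80 with a difference or, for Cox4i2, a bound, where 18.6% of all gene labels were higher and 16.6% lower. Their median log2 difference was 0.15, with quartiles of -0.20 and 0.40, beside a median of 0.03 and quartiles of -0.67 and 0.74 over all labels. In ES cells against MEF, 5 members were higher and 1 lower among 81, of which Cox4i2 and Cox8c had bounds, where 32.9% of all labels were higher and 27.3% lower. The median was 0.10, with quartiles of -0.23 and 0.41, beside 0.21 with quartiles of -1.16 and 1.43 over all labels. Of genes well above background on all 3 arrays, 69 of 79 members (87.3%) and 33.5% of all labels lay within 2-fold in both comparisons. The members are bright genes. Their median signal lay above 96.9% of gene labels in p53-null MEF, 96.7% in ES cells and 96.5% in MEF. Members were not set against other genes of like signal, so the part of brightness in their narrow spread was not tested. Among structural subunits alone, 3 were higher and 5 lower of 77 in p53-null MEF, and 4 higher and 1 lower of 78 in ES cells. The comparisons share the MEF array. In bulk RNA, fewer cells of a type and less RNA per cell cannot be told apart. Scaling to spike-in controls moved the median of all labels in p53-null MEF to 2.09 and made 73 members higher and 1 lower there.

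**Figure D1:**
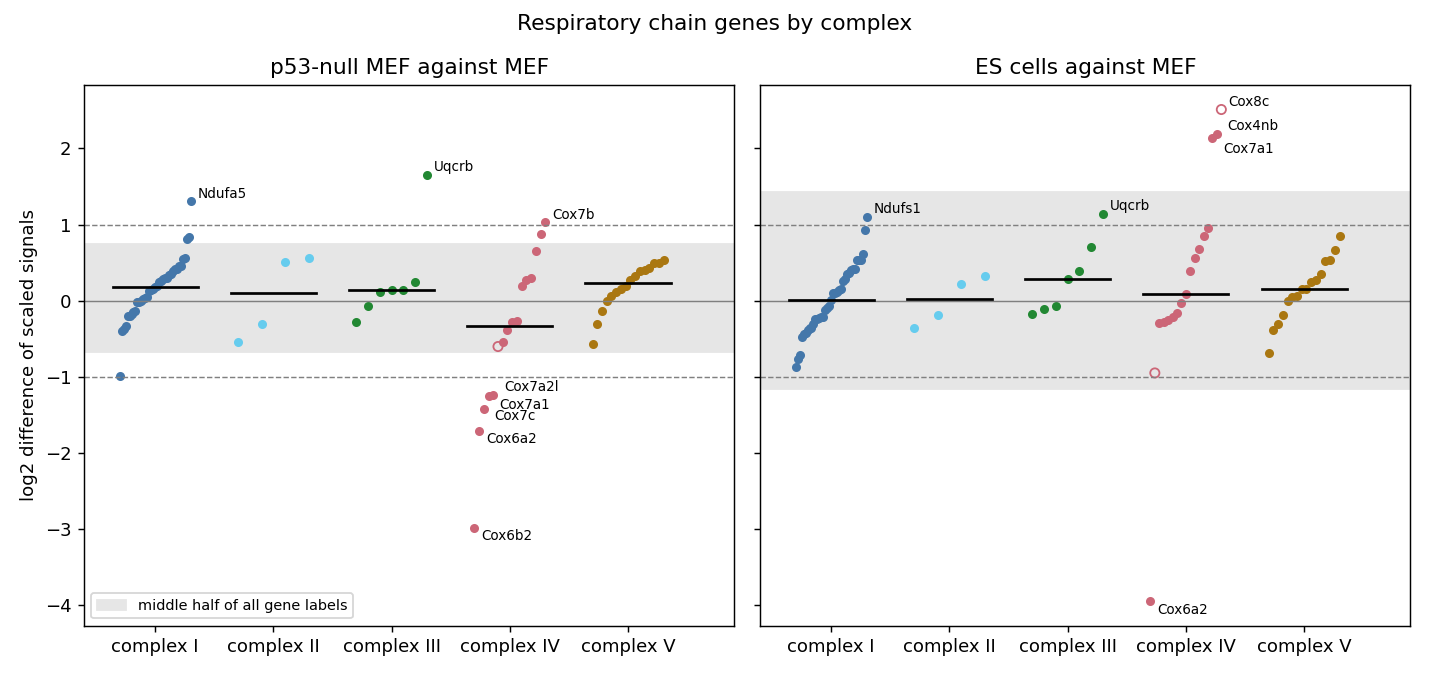
Log2 difference of scaled signals (vertical axis) of each member by complex, in p53-null MEF against MEF and in ES cells against MEF. Points are genes, open symbols are bounds, lines are medians, dashed lines mark 2-fold and the grey band spans the quartiles of all gene labels. The members farthest from 0, Cox6b2 at -2.98 and Cox6a2 at -3.94, are in complex IV, and complexes II and V lie within 2-fold.

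Complex I takes electrons from NADH. It had 1 member of 37 higher and 0 lower in each comparison. Of all labels, 18.6% were higher and 16.6% lower in p53-null MEF, and 32.9% and 27.3% in ES cells. Complex I had median log2 differences of 0.18 in p53-null MEF and 0.01 in ES cells. Ndufa5, an accessory subunit of the matrix arm, read 47693 units in p53-null MEF, 23702 units in ES cells and 15363 units in MEF. It was highest in p53-null MEF, 2.47-fold above MEF (log2 1.31 ± 0.20, error model), and had 0.62 in ES cells. Ndufs1, the large iron-sulfur subunit, read 20070.1 units in p53-null MEF, 25758 units in ES cells and 11952 units in MEF. It was highest in ES cells, 2.14-fold above MEF (log2 1.10 ± 0.20), and had 0.42 in p53-null MEF. Ndufs1 stayed past 2-fold in ES cells under 7 of 11 other settings, and its other probe was dim on every array. Just inside 2-fold stood Ndufa11 at -0.99 in p53-null MEF, whose other probe gave -1.06, and Ndufs6 at 0.93 in ES cells, whose other probes gave 0.92 and 0.94. Nearest the median were Ndufs5 in p53-null MEF, at 92475 units against 65016 units in MEF, and Ndufa12 in ES cells, at 20716 units against 20381 units in MEF. Ndufv1, which binds NADH, was picked for that role and had log2 differences of 0.42 in p53-null MEF and 0.53 in ES cells.

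Complex II, also an enzyme of the citric acid cycle, had 4 of 4 members within 2-fold in both comparisons. Of all labels well above background on all 3 arrays, 33.5% were. Sdha, the flavoprotein that oxidises succinate, read 2824 units in p53-null MEF, 3819 units in ES cells and 3261 units in MEF, with log2 differences of -0.54 in p53-null MEF and 0.22 in ES cells. Sdhb, its iron-sulfur partner, read 24964 units in p53-null MEF, 10971 units in ES cells and 14009 units in MEF, with 0.51 in p53-null MEF and -0.36 in ES cells. Sdha was lowest in p53-null MEF and Sdhb lowest in ES cells. Of the membrane anchors, Sdhc had -0.30 in p53-null MEF and -0.18 in ES cells, and Sdhd 0.56 in p53-null MEF and 0.32 in ES cells.

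Complex III passes electrons from ubiquinone to cytochrome c, and 6 of 7 members lay within 2-fold in both comparisons. Of all labels well above background on all 3 arrays, 33.5% did. Uqcrb, a small subunit that helps bind ubiquinone, read 20962 units in p53-null MEF, 11826 units in ES cells and 5321 units in MEF. It was lowest in MEF, 3.14-fold higher in p53-null MEF (log2 1.65 ± 0.20, error model) and 2.21-fold higher in ES cells (1.14 ± 0.20). Uqcrh, nearest the median in p53-null MEF, had log2 differences of 0.14 in p53-null MEF and -0.07 in ES cells. Uqcrc2, a core protein and nearest the median in ES cells, had 0.25 in p53-null MEF and 0.28 in ES cells. Uqcrfs1, the Rieske iron-sulfur protein and picked for that role, had 0.12 in p53-null MEF and 0.39 in ES cells. Probes of Uqcrq disagreed in ES cells: the bright one read 66555 units against 74340.0 units in MEF (log2 -0.17), and the weaker one 473 units against 79.0 units (2.57).

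Complex IV hands electrons to oxygen. It held 6 of the 8 members called in p53-null MEF and 4 of the 6 called in ES cells, 1 of which is Cox4nb, no chain subunit. Of its 16 members with a difference or bound in p53-null MEF, 6.25% were higher and 31.25% lower, where 18.6% and 16.6% of all labels were. Of 17 in ES cells, 17.6% were higher and 5.88% lower, below the 32.9% and 27.3% of all labels. Of the 15 complex IV members measured on all 3 arrays, 8 lay within 2-fold in both comparisons, where 33.5% of all labels did. Its median log2 difference was -0.34 in p53-null MEF and 0.09 in ES cells. The general subunits Cox4i1, Cox5a, Cox5b, Cox6a1, Cox6b1, Cox6c and Cox8a lay between -0.54 and 0.30 in p53-null MEF and between -0.29 and 0.56 in ES cells. Cox4i1, the general form of subunit 4, read 99900.5 units in p53-null MEF, 114236 units in ES cells and 116020.0 units in MEF.

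Other general subunits of complex IV differed in p53-null MEF. Cox7b, a small subunit, read 26059 units in p53-null MEF, 19927 units in ES cells and 10175 units in MEF. It was lowest in MEF, 2.04-fold higher in p53-null MEF (log2 1.03 ± 0.20, error model), with 0.96 in ES cells. Cox7c, another small subunit, read 3283 units in p53-null MEF, 12702 units in ES cells and 7016 units in MEF. It was lowest in p53-null MEF, 2.68-fold below MEF (log2 -1.42 ± 0.20), with 0.85 in ES cells. Cox7a2l, which joins complexes III and IV in supercomplexes, read 7685 units in p53-null MEF, 11935 units in ES cells and 14419.6 units in MEF. It was also lowest in p53-null MEF, 2.35-fold below MEF (log2 -1.24 ± 0.20), with -0.28 in ES cells. With spike-in scaling, which moved all labels upward, the p53-null values of Cox7c, Cox7a2l, Cox6a2 and Cox7a1 turned to 0.56, 0.74, 0.27 and 0.73.

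The widest differences among members, Cox6b2 in p53-null MEF and Cox6a2 in ES cells, were those of tissue forms. Of 6 tissue forms among the members, 3 had a difference in p53-null MEF, all 3 lower, and Cox4i2 had a bound short of 2-fold. Of all labels there, 18.6% were higher and 16.6% lower. In ES cells 3 had a difference, Cox7a1 higher, Cox6a2 lower and Cox6b2 neither. Cox8c was higher by its bound and the bound of Cox4i2 fell short of 2-fold. Of all labels, 32.9% were higher and 27.3% lower in ES cells, and the tissue forms are few. Without the tissue forms, 71 of 76 members lay within 2-fold in p53-null MEF and 73 of 76 in ES cells. Of all labels, 64.8% and 39.9% did. Cox6a2, the form of heart and skeletal muscle, read 109 units in p53-null MEF, 18.5 units in ES cells and 283 units in MEF. It was highest in MEF, 3.26-fold lower in p53-null MEF (log2 -1.71 ± 0.21, error model) and 15.4-fold lower in ES cells (-3.94 ± 0.27). Its general partner Cox6a1, nearest the median of complex IV in p53-null MEF, read 186964 units in p53-null MEF, 157063 units in ES cells and 181487 units in MEF, with log2 differences of -0.28 in p53-null MEF and -0.22 in ES cells.

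Cox7a1, also a form of heart and skeletal muscle, read 477 units in p53-null MEF, 3998 units in ES cells and 904 units in MEF. It was highest in ES cells, 4.39-fold above MEF (log2 2.14 ± 0.20, error model), and 2.38-fold lower in p53-null MEF (-1.25 ± 0.20). Its partner Cox7a2, nearest the median in ES cells, read 37352 units in p53-null MEF, 17289 units in ES cells and 16184 units in MEF, with log2 differences of 0.88 in p53-null MEF and 0.09 in ES cells. Of 14 skeletal and cardiac muscle markers, 8 were well above background on each array, with summed signals of 3987 units in p53-null MEF, 926 units in ES cells and 7358 units in MEF. Acta1, skeletal muscle actin, made up most of the sums in p53-null MEF and MEF, at 2495 units and 6374 units. Per gene, 2 of 8 measured markers were higher in p53-null MEF (Myog at 1.90 and Myh3 at 1.80) and 2 lower (Acta1 at -1.68 and Des at -1.33), for a median of 0.41, with 5 above 0. In ES cells 4 were higher and 6 lower among 10, 4 of them bounds. Of all labels, 18.6% were higher and 16.6% lower in p53-null MEF, and 32.9% and 27.3% in ES cells. Myod1, Myf5, Myf6 and Ckm were not well above background on any array, while Myog was so in p53-null MEF and MEF, and Myh3 and Myh8 on all 3 arrays. The part of muscle cells in these levels was not tested.

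Forms named for the testis also differed. Cox6b2 read 143 units in p53-null MEF, 1449.6 units in ES cells and 899 units in MEF. It was lowest in p53-null MEF, 7.89-fold below MEF (log2 -2.98 ± 0.21, error model), with 0.68 in ES cells. Its partner Cox6b1 read 4261 units in p53-null MEF, 2280.1 units in ES cells and 2765 units in MEF, with log2 differences of 0.30 in p53-null MEF and -0.29 in ES cells. Cox8c read 3.32 units (dim) in p53-null MEF, 70.9 units in ES cells and 2.57 units (dim) in MEF, at least 5.70-fold higher in ES cells than in MEF. Its partner Cox8a read 55223 units in p53-null MEF, 52033 units in ES cells and 57664 units in MEF, with log2 differences of -0.39 in p53-null MEF and -0.16 in ES cells. Cox7b2, listed under a clone name and so outside the members, read 4.19 units (dim) in p53-null MEF, 51.0 units in ES cells and 2.85 units (dim) in MEF, at least 4.10-fold higher in ES cells than in MEF. Of 8 testis and germ line markers, 3 were well above background in p53-null MEF, 7 in ES cells and 4 in MEF, with summed signals of 625, 12065 and 906 units. Per gene, 1 was higher and 2 lower among 4 in p53-null MEF, of which 1 was a bound. Of all labels, 18.6% were higher and 16.6% lower there. In ES cells 6 were higher and 0 lower among 7, of which 3 were bounds, where 32.9% and 27.3% of all labels were. Pgk2 was not well above background on any array. Their part in these levels was not tested.

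Other tissue forms were low. Cox4i2, the lung form, read 3.27 units (dim) in p53-null MEF, 3.41 units (dim) in ES cells and 19.4 units in MEF, which bounds its log2 differences at -0.60 in p53-null MEF and -0.95 in ES cells, and Cox8b, a muscle form, was not well above background on any array. Ndufa4, whose partner Ndufa4l2 was not analysed here, read 46719 units in p53-null MEF, 29260.4 units in ES cells and 31023 units in MEF, with log2 differences of 0.26 in p53-null MEF and -0.09 in ES cells. Cox4nb, which is no chain subunit, read 4945 units in p53-null MEF, 11553 units in ES cells and 2515 units in MEF. It was highest in ES cells, 4.57-fold above MEF (log2 2.19 ± 0.20, error model), with 0.65 in p53-null MEF. Against both fibroblast arrays at once, Cox4nb, Cox7a1 and Cox8c were higher in ES cells and Cox6a2 was lower, where 22.5% of all labels were higher and 18.9% lower.

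**Figure D2:**
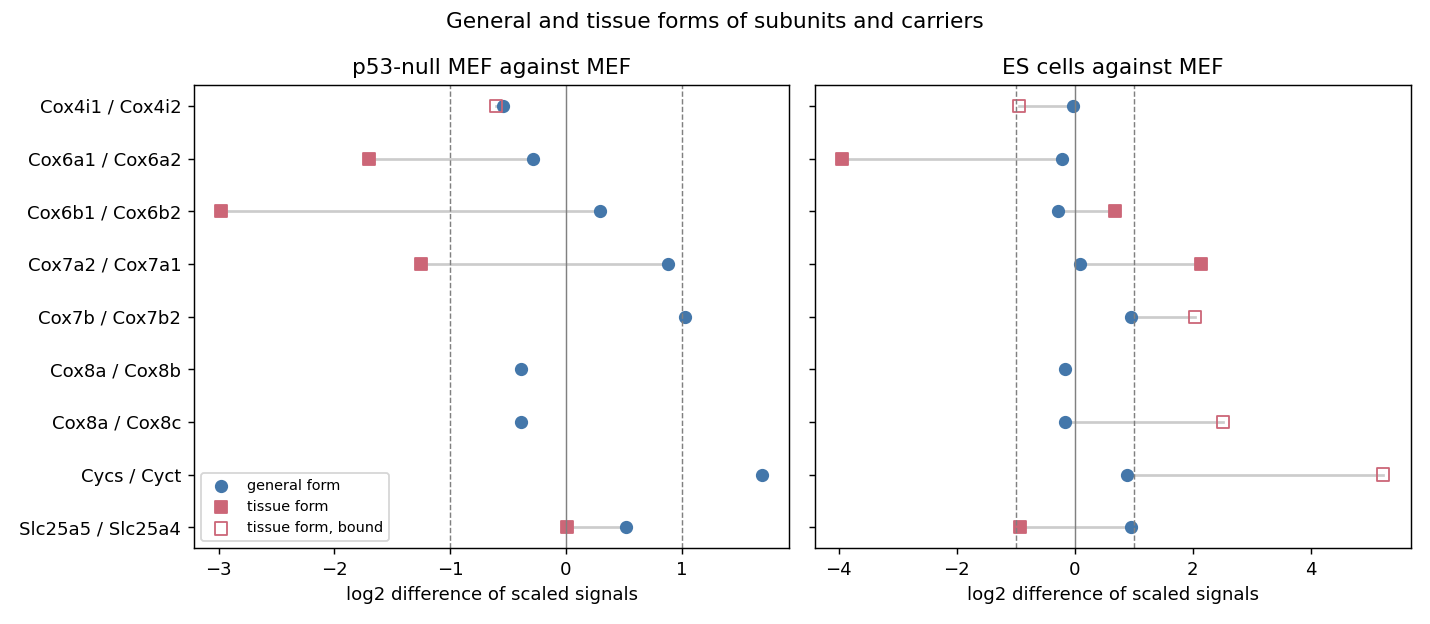
Log2 difference of scaled signals (horizontal axis) for general and tissue forms of the same subunit or carrier, in p53-null MEF against MEF and in ES cells against MEF, with bounds as open symbols. Cox6a2 lies at -1.71 and -3.94 where Cox6a1 lies at -0.28 and -0.22.

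**Figure D3:**
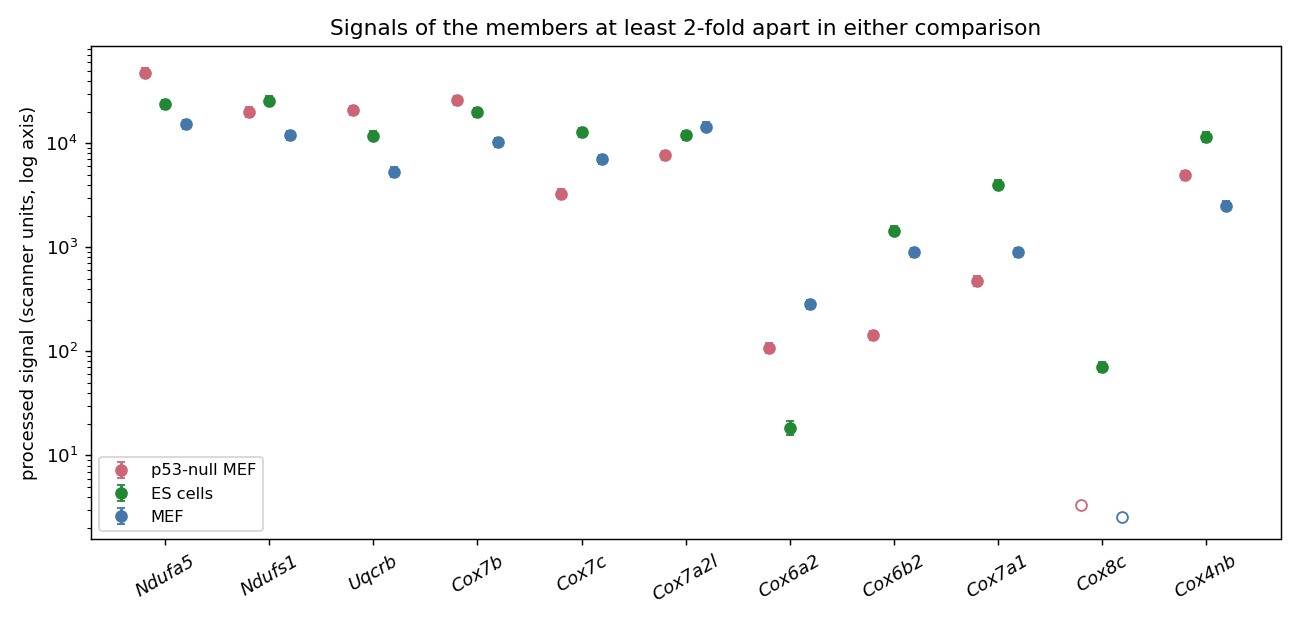
Processed signal in scanner units (log axis) of the members at least 2-fold apart in either comparison, on the p53-null MEF, ES cell and MEF arrays. Bars are the error model and open symbols are signals not well above background. Cox7a1 is highest in ES cells, and Cox6b2 and Cox7c are lowest in p53-null MEF.

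Complex V, the ATP synthase, had 16 of 16 members within 2-fold in both comparisons. Of all labels well above background on all 3 arrays, 33.5% were. Complex V had median log2 differences of 0.23 in p53-null MEF and 0.15 in ES cells. Its members ranged from -0.57 (Atp5l) to 0.53 (Atp5f1) in p53-null MEF and from -0.68 (Atp5l) to 0.85 (Atp5a1) in ES cells. Atp5a1, the alpha subunit of the catalytic head and nearest the median in p53-null MEF, read 63473 units in p53-null MEF, 76141 units in ES cells and 41877 units in MEF. Its other probe gave 0.17 in ES cells. Atp5c1, the central stalk and nearest the median in ES cells, read 145252 units in p53-null MEF, 96049.6 units in ES cells and 85748 units in MEF, with log2 differences of 0.43 in p53-null MEF and 0.15 in ES cells. Atp5b, the catalytic beta subunit, was picked for that role and read 120712 units in p53-null MEF, 133426 units in ES cells and 92030.0 units in MEF, with 0.06 in p53-null MEF and 0.53 in ES cells. Its other probes gave 1.06 and 1.04 in ES cells, past 2-fold. A weak probe of Atp5f1, at 44.6 units in ES cells, gave 1.04 there. The count within 2-fold rests on the brightest probe of each gene.

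Probes named for mitochondrially encoded subunits gave a view of the other genome. CYTB, of complex III, read 40071 units in p53-null MEF, 29228 units in ES cells and 24472 units in MEF, with log2 differences of 0.38 in p53-null MEF and 0.25 in ES cells. ND4L, of complex I, read 40843 units in p53-null MEF, 32202 units in ES cells and 27322 units in MEF, with 0.25 in p53-null MEF and 0.23 in ES cells. The probe named COX2, for a core subunit of complex IV, is placed on chromosome 1 by the array's annotation and had 0.13 in p53-null MEF and 0.16 in ES cells.

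Chain genes that carry other names, for cytochrome c, ubiquinone synthesis, assembly and electron entry, were read from a list. In p53-null MEF, where 18.6% of all labels were higher and 16.6% lower, 4 listed genes were higher and 5 lower among 49. Their median log2 difference was 0.27. Without scaling between arrays 11 were higher and 3 lower, with normexp 6 and 2, and with spike-ins 44 and 0 among 47. In ES cells 14 were higher and 4 lower among 50, with a median of 0.45, shares below the 32.9% and 27.3% of all labels. Pdss1, which starts the ubiquinone side chain, read 3175 units in p53-null MEF, 5176 units in ES cells and 542 units in MEF. It was 4.67-fold higher in p53-null MEF and 9.49-fold higher in ES cells than in MEF. Sqor, which feeds electrons from sulfide into ubiquinone, read 3313 units in p53-null MEF, 280.0 units in ES cells and 11338 units in MEF. Against MEF it was 40.7-fold lower in ES cells and 4.29-fold lower in p53-null cells. Prodh, which feeds in electrons from proline, read 498 units in p53-null MEF, 3988 units in ES cells and 105 units in MEF. It was lowest in MEF, more than 2-fold higher in p53-null MEF and 37.9-fold higher in ES cells. Coq3, a methyltransferase of ubiquinone synthesis, read 4.16 units (dim) in p53-null MEF, 16.4 units in ES cells and 42.8 units in MEF, a fall of at least 3.36-fold for p53-null MEF against MEF. Cyct, the testis form of cytochrome c, read 7.01 units (dim) in p53-null MEF, 468 units in ES cells and 2.53 units (dim) in MEF, at least 37.6-fold higher in ES cells than in MEF. The somatic form Cycs read 68238 units in p53-null MEF, 31411 units in ES cells and 16787 units in MEF, with log2 differences of 1.70 in p53-null MEF and 0.90 in ES cells, and its other probes gave 0.52 and 0.74 in p53-null MEF.

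Regulators of mitochondrial biogenesis on the list numbered 24. In p53-null MEF, where 18.6% of all labels were higher and 16.6% lower, 5 regulators (21.7%) were higher and 1 lower among 23. Of the 23 regulators, 1 had a bound, and the median log2 difference was 0.56. Without scaling between arrays 10 were higher, with cyclic loess 3, and with spike-ins 21 of 22. In ES cells 15 were higher and 4 lower among 24, of which 4 were bounds, beside 32.9% and 27.3% of all labels. The median was 1.61. Among the 20 regulators well above background on both arrays, 14 were higher and 2 lower. Tfam, which packs and transcribes mitochondrial DNA, read 11239 units in p53-null MEF, 22819 units in ES cells and 4236 units in MEF at its brightest probe, with log2 differences of 1.08 in p53-null MEF and 2.42 in ES cells. A second Tfam probe gave -2.08 in p53-null MEF and -1.69 in ES cells, so the direction depends on the probe. Ssbp1, which binds single-stranded mitochondrial DNA, read 13962 units in p53-null MEF, 26982 units in ES cells and 5241 units in MEF, with 1.09 in p53-null MEF and 2.36 in ES cells. The mitochondrial transcription factors Mterf2 and Mterf1a had 1.52 in p53-null MEF and 1.64 in ES cells for Mterf2 and 0.86 in p53-null MEF and 2.41 in ES cells for Mterf1a. Esrrb, a nuclear receptor of ES cells and one of the ES cell markers, read 3.92 units (dim) in p53-null MEF, 10349 units in ES cells and 3.15 units (dim) in MEF, at least 832-fold higher in ES cells than in MEF. Esrrg, a related receptor, read 339 units in p53-null MEF, 2.30 units (dim) in ES cells and 43.0 units in MEF, 6.27-fold higher in p53-null MEF, while its other probe gave -0.59. Esrra, also of that family, read 1817 units in p53-null MEF, 1381 units in ES cells and 4232 units in MEF, with -1.55 in p53-null MEF and -1.63 in ES cells, and its other probe gave -0.59 and -0.32.

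Import and inner membrane genes numbered 26. In p53-null MEF 5 (19.2%) were higher, near the 18.6% of all labels, and 0 were lower, where 16.6% of all labels were. The median log2 difference was 0.48. In ES cells 15 (57.7%) were higher and 0 lower, with a median of 1.13, beside 32.9% and 27.3% of all labels. Timm8a1, a chaperone of the intermembrane space, read 13099 units in p53-null MEF, 20058 units in ES cells and 4032 units in MEF, with log2 differences of 1.37 in p53-null MEF and 2.31 in ES cells. Hspd1, the chaperonin that folds imported proteins, read 97565 units in p53-null MEF, 143310.0 units in ES cells and 31625 units in MEF, with 1.30 in p53-null MEF and 2.17 in ES cells. Both were lowest in MEF. Its partner Hspe1 had 1.21 in p53-null MEF and 1.55 in ES cells, and Timm10 had 0.94 in p53-null MEF and 2.24 in ES cells. Tomm70a, an import receptor of the outer membrane, had 0.42 in p53-null MEF and 1.93 in ES cells, and Timm50, of the inner membrane channel, had 1.10 in p53-null MEF and 0.94 in ES cells. In p53-null MEF 3 to 8 import genes were higher under the settings without spike-ins and 26 of 26 with spike-ins. In ES cells 12 to 15 were higher without spike-ins and 18 with them.

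**Figure D4:**
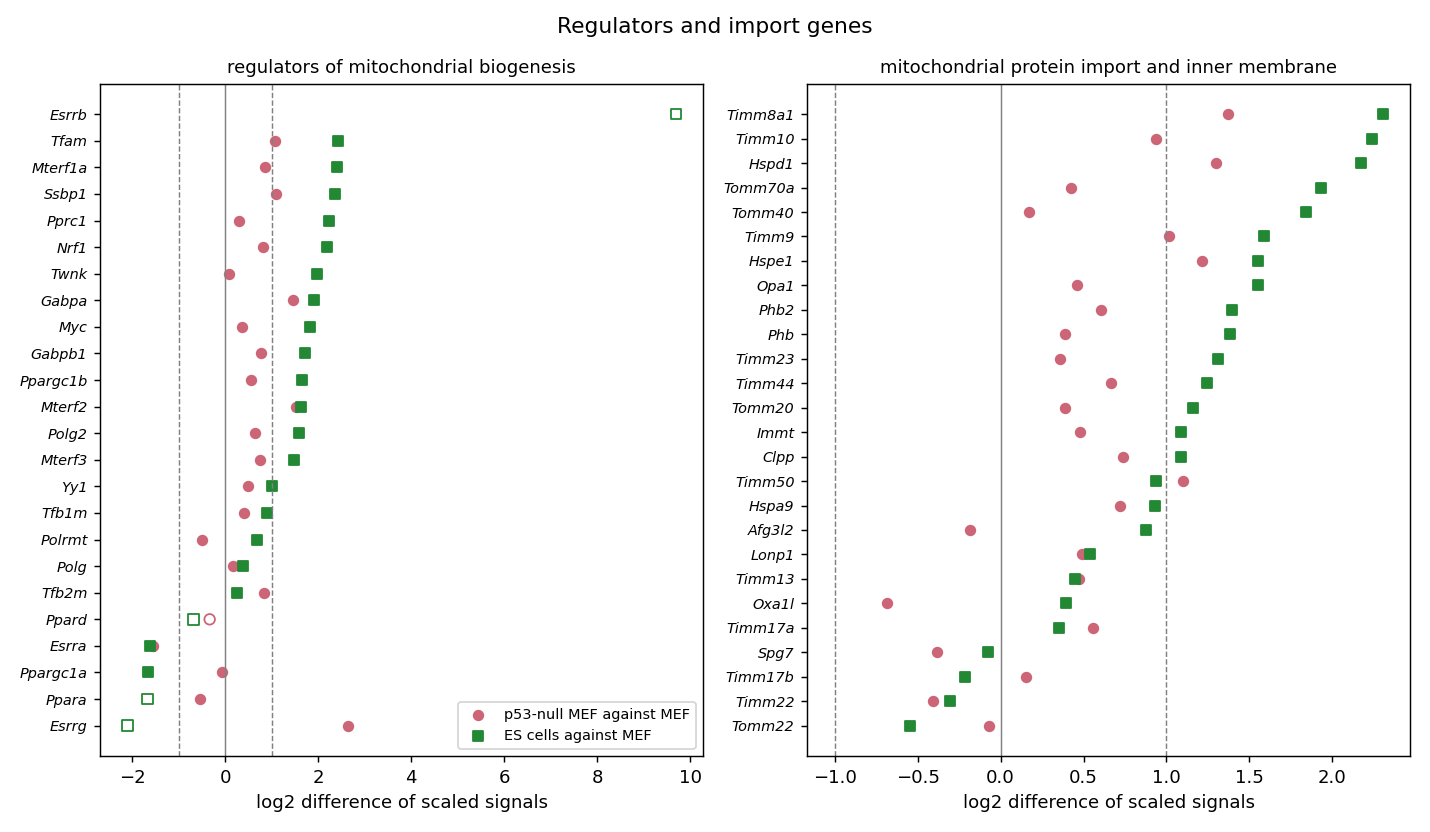
Log2 difference of scaled signals (horizontal axis) for regulators of mitochondrial biogenesis and for import and inner membrane genes, in p53-null MEF against MEF and in ES cells against MEF, with bounds as open symbols and dashed lines at 2-fold. In ES cells 15 genes of each list lie at or beyond 2-fold higher, where 32.9% of all gene labels do.

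Promoters of the members were searched on both strands for letters bound by factors known to drive chain genes: NRF1 GCGCATGCG, ETS (Gabpa) CCGGAAGT, YY1 AAGATGGCG and ERRA (Esrra) TCAAGGTCA. RefSeq windows of 300 bases, 250 before and 50 after the gene start on build GRCm38.p6, were matched for 67 of 82 members. The NRF1 letters were in 8 members (11.9%) and in 2.61% of 17492 protein-coding genes with a window, and the YY1 letters in 7 members (10.4%) and in 2.14% of those genes. The ETS letters were in 5 members (7.46%), close to the 5.69% of protein-coding genes, and the ERRA letters in 2 members (2.99%) and in 0.377% of protein-coding genes. Over all 27025 genes with a window the shares were 1.95% for NRF1, 1.64% for YY1, 4.31% for ETS and 0.466% for ERRA. Of the 7 YY1 matches, 6 began 22 to 35 bases after the gene start. Windows are shown for Cox6a1 (NRF1 letters), Uqcr, now Uqcr11 (ETS and NRF1 letters), and Ndufs7 (YY1 letters), with letters matched on either strand in capitals, where those of Cox6a1 match on both.
Cox6a1 at chr5:115348909-115349208 on the minus strand: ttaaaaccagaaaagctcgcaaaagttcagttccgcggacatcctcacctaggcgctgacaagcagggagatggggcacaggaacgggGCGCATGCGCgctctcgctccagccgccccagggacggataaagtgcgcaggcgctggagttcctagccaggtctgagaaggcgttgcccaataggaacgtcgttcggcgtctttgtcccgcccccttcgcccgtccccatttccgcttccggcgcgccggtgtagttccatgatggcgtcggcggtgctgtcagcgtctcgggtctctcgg
Uqcr at chr10:80406772-80407071 on the minus strand: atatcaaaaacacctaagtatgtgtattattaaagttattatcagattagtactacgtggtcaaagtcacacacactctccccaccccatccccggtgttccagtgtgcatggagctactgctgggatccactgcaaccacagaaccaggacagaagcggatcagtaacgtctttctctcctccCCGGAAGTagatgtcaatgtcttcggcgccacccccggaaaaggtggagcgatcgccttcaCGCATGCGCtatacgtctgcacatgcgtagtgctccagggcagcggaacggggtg
Ndufs7 at chr10:80249199-80249498 on the plus strand: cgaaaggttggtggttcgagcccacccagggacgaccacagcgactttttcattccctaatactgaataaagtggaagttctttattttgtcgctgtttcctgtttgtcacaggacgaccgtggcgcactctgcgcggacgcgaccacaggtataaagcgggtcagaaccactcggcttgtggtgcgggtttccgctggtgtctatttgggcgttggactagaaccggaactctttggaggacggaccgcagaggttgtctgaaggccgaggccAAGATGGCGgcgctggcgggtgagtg
A match is a description of the letters. The log2 differences of these genes were -0.28 in p53-null MEF and -0.22 in ES cells for Cox6a1, -0.27 in p53-null MEF and -0.11 in ES cells for Uqcr and 0.29 in p53-null MEF and 0.41 in ES cells for Ndufs7. Among the genes of the factors, Nrf1 read 564 units in p53-null MEF, 1173 units in ES cells and 255 units in MEF, with 0.82 in p53-null MEF and 2.19 in ES cells, and its other probe gave 0.22 and 0.88. Gabpa read 2787 units in p53-null MEF, 3057 units in ES cells and 809.7 units in MEF, with 1.46 in p53-null MEF and 1.91 in ES cells, and its other probes gave 0.48 and 0.79 in p53-null MEF, short of 2-fold. Yy1 had 0.48 in p53-null MEF and 1.01 in ES cells.

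Genes of the citric acid cycle and pyruvate dehydrogenase were called no more often than all labels. In p53-null MEF 1 was higher and 3 lower among 26, for a median log2 difference of -0.01, where 18.6% and 16.6% of all labels were. In ES cells 5 were higher and 7 lower among 27, with a median of 0.17, where 32.9% and 27.3% of all labels were. Pdk1, a kinase that shuts pyruvate dehydrogenase, read 550.0 units in p53-null MEF, 5114 units in ES cells and 721 units in MEF, 7.05-fold higher in ES cells than in MEF, and its other probe gave a log2 difference of 1.08 there. Pdk2, of the same family, read 30.1 units in p53-null MEF, 37.3 units in ES cells and 116 units in MEF, with log2 differences of -2.28 in p53-null MEF and -1.65 in ES cells, and Pdk4 had -0.82 in p53-null MEF and -1.59 in ES cells. Pdp1, the phosphatase that reopens the enzyme, read 792 units in p53-null MEF, 370.0 units in ES cells and 2088 units in MEF, with -1.73 in p53-null MEF and -2.51 in ES cells. Pcx, which carboxylates pyruvate, had -1.78 in p53-null MEF and -1.03 in ES cells, and Dld, a subunit shared by the dehydrogenases, 1.37 in p53-null MEF and 1.03 in ES cells.

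Of 12 carriers and uncoupling proteins, 1 was higher and 1 lower in p53-null MEF among 9, where 18.6% and 16.6% of all labels were. In ES cells 3 were higher and 0 lower among 11, of which 2 were bounds, where 32.9% and 27.3% of all labels were. Slc25a4, the ATP and ADP carrier of heart and muscle, read 177082 units in p53-null MEF, 74153 units in ES cells and 139987 units in MEF, with log2 differences of 0.01 in p53-null MEF and -0.93 in ES cells. Slc25a5, the form of dividing cells, read 128360.0 units in p53-null MEF, 139591 units in ES cells and 71579 units in MEF, with 0.51 in p53-null MEF and 0.95 in ES cells. Slc25a4 was lowest in ES cells and Slc25a5 lowest in MEF. Slc25a31, the germ cell form, read 3.92 units (dim) in p53-null MEF, 189.7 units in ES cells and 2.94 units (dim) in MEF, at least 15.2-fold higher in ES cells than in MEF. Ucp2, a carrier of the uncoupling family, read 26.6 units in p53-null MEF, 257 units in ES cells and 67.0 units in MEF, with -1.66 in p53-null MEF and 1.93 in ES cells. Slc25a27, of the same family, had 1.39 in p53-null MEF and 2.71 in ES cells.

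**Figure D5:**
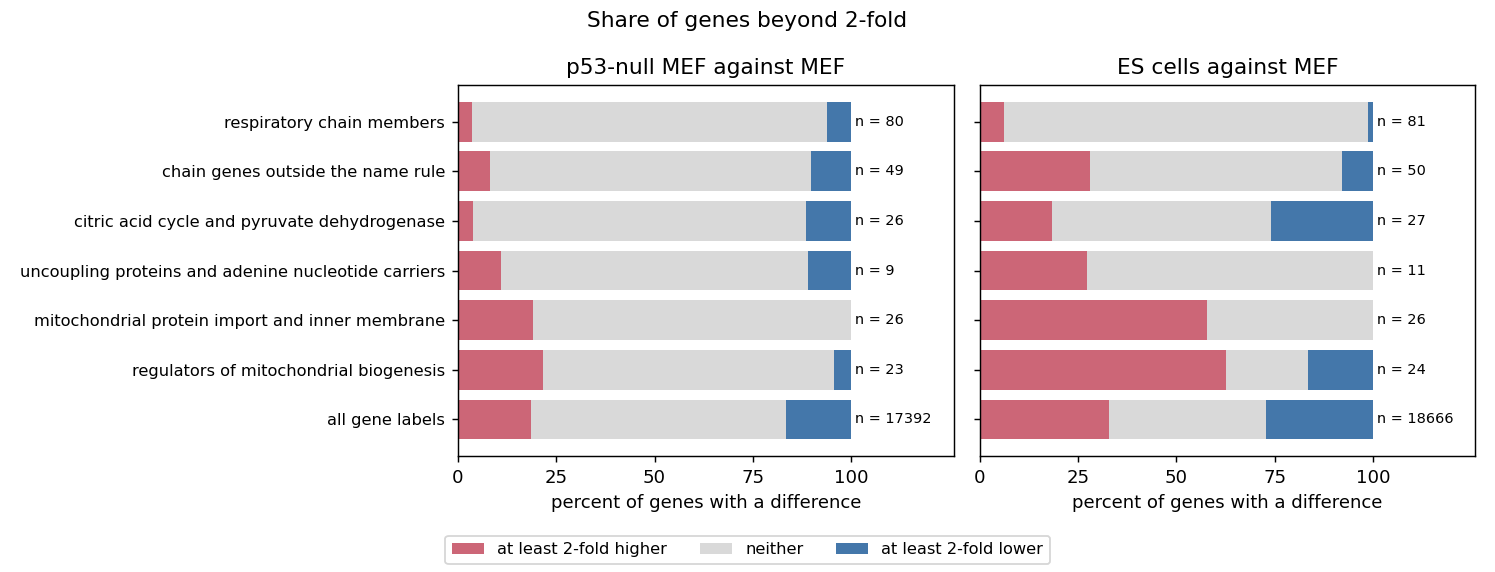
Percent of genes (horizontal axis) at least 2-fold higher, neither (bounds short of 2-fold included) and at least 2-fold lower for the chain members, related lists and all gene labels, in p53-null MEF against MEF and in ES cells against MEF. Of the members, 90.0% are neither in p53-null MEF and 92.6% in ES cells, where 64.8% and 39.9% of all labels are.

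The 21 members with several probes show how far probes of a gene differ. The median standard deviation between their log2 differences was 0.20 in p53-null MEF and 0.093 in ES cells. They spanned at least 1 log2 unit for Ndufab1 and Ndufb8 in p53-null MEF and for Ndufb8 and Uqcrq in ES cells.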

How the data were processed

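Total RNA of 3 samples was read on 1-colour arrays. Per the file headers, the deposited intensity of each spot was read by the authors with Feature Extraction (Agilent, version 9.5.3.1). The deposited value table holds the same intensities, within ratios of 0.995 to 1.005. Each array's processed signal was divided by the 75th percentile of its non-control spots and log2 transformed. Control spots and outlier spots were left out and spots of a probe averaged. The brightest probe stood for a gene. A gene had a difference where it was well above background on both arrays, and a bound where it was so on 1. No test was made. Probe names were updated through RefSeq accessions for 24375 probes. Named were members past 2-fold, isoform pairs, the member nearest each complex's median, and up to 4 genes of largest difference per list and comparison, plus a few members picked for their role. Members and lists were chosen with earlier results of these data known. Python 3.11.15, R 4.3.3 and limma 3.58.1 were used, and the steps were tested on simulated data. Other scalings, background corrections, filters, probe rules and membership rules were tried.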

Additional observations from a re-analysis of the deposited data

How the results depend on the processing

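Members higher in p53-null MEF numbered 3, but 6 without scaling between arrays, 73 with spike-in scaling and 5 with wider membership. Members lower numbered 5, but 3 without scaling and 1 with spike-ins. Their median of 0.15 became 0.48 without scaling and 2.13 with spike-ins, where the median of all labels was 0.38 and 2.09. With spike-ins the p53-null values of Cox6a2, Cox7a1, Cox7a2l and Cox7c turned to 0.27, 0.73, 0.74 and 0.56, and the cause was not tested. Members higher in ES cells numbered 5, but 3 with median scaling and 9 with spike-ins or wider membership. Members lower numbered 1, but 3 with median scaling or cyclic loess and 2 with quantile normalization or no filter on dim probes. Their median of 0.10 became -0.12 with median scaling and 0.34 with spike-ins. No other setting run moved a member count by over 1.5 times. Of all labels called in p53-null MEF, 52.8% were higher, but 71.2% without scaling and 98.0% with spike-ins. Some calls fell short of 2-fold: Cox7b in p53-null MEF with normexp or cyclic loess (lowest 0.87), Cox7a1 and Cox7a2l in p53-null MEF without scaling (-0.92 and -0.91), Cox7a2l also with normexp (just under 2-fold), and in ES cells Uqcrb with median scaling (0.92) and Ndufs1 with median scaling, cyclic loess or all probes (lowest 0.40). The Ndufs1 values over all probes take in a probe that was dim on every array. No paired analysis was possible because each group has 1 array.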
